A study of Mus musculus with 14 samples.

Results

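The DNA replication genes are 47 protein-coding genes that build, fuel or follow the replication fork. They were chosen by name from the pathway, with earlier results of these data known. All 47 were found among the 54524 genes of the deposited count table, and 47 of 47 passed the filter on low counts. They were read in 9 roles, namely the MCM helicase and its loading (11 genes), GINS and Cdc45 (5 genes), DNA polymerases and primase (9 genes), RFC and PCNA (6 genes), RPA (3 genes), Okazaki fragment joining (2 genes), nucleotide supply (4 genes), chromatin and methylation upkeep (4 genes) and fork repair (3 genes).

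RNA sequencing was performed on liver sinusoidal endothelial cells (LSECs), the fenestrated endothelium that lines the hepatic capillaries. The cells came from male Balb/c mice labelled as 10 to 12 weeks old and were sorted from perfused livers as CD32-positive, F4/80-negative, UV-negative and propidium iodide-negative cells, without culture. Of the 14 samples, 4 came from healthy mice that were not injected, and 2, 4 and 4 from mice taken 1, 3 and 7 days after 1 intraperitoneal injection of carbon tetrachloride (CCl4) at 0.5 µL per g body weight in mineral oil. CCl4 is a toxin that kills hepatocytes around the central vein. The design has no mice injected with mineral oil alone, so an effect of the vehicle and an effect of CCl4 cannot be told apart, and day 1 has only 2 samples because the RNA of the others was of low quality.

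Replication starts when ORC, CDC6 and CDT1 load the MCM2 to MCM7 ring onto DNA, and the ring becomes an active helicase once CDC45 and GINS join it. Polymerase alpha with primase then starts each strand, RFC loads the PCNA clamp that holds polymerases delta and epsilon, RPA covers single-stranded DNA, and FEN1 and LIG1 join the lagging-strand pieces. Most of these genes are transcribed around the start of S phase under E2F factors, and quiescent endothelium keeps them low.

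Sequences ahead of the start sites are shown first because E2F-type letters are a feature that the choice of the genes did not use. In RefSeq promoters of build GRCm38.p6 (250 bases before to 50 bases after a start), 39 of the 47 members had an entry. The E2F-type letters searched on both strands were TTTCCCGC, TTTCGCGC, TTTGCCGC and TTTGGCGC, and runs that overlapped on opposite strands were counted separately. At least 1 run was present in 16 of the 39 members (41.0%) and in 704 of 27025 genes of the table (2.6%). The stretches below were printed because they lie before a RefSeq start and in no annotated exon, which holds for 8 runs in 5 members. All 5 were called higher on day 3, as were 22 of the 39 members with an entry. Rfc3 and Gins3, not called on day 3, also held a run before the start, but their stretches lie in annotated exons. Of the 8 runs outside exons, 2 are not printed because each overlaps a printed run on the opposite strand, 1 in Mcm6 and 1 in Mcm5. The RefSeq starts of Mcm6 and Mcm5 were not found among the GENCODE transcripts, unlike those of Cdc6, Uhrf1 and Pola1. The stretches of Cdc6 and Uhrf1 lie within the genes as annotated in GENCODE, which begin at chr11:98907801 and chr17:56303321. Capitals mark the run, read 5′ to 3′ on the strand of the gene.
Mcm6, minus strand, chr1:128359788-128359835: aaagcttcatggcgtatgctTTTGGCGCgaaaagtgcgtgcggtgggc
Mcm6, minus strand, chr1:128359725-128359772: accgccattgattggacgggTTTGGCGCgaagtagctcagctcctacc
Mcm5, plus strand, chr8:75109336-75109383: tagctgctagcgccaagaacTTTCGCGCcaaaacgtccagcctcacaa
Cdc6, plus strand, chr11:98907993-98908040: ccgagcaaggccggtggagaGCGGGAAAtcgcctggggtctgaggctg
Uhrf1, plus strand, chr17:56304108-56304155: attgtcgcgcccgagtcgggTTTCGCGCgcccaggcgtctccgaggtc
Pola1, minus strand, chrX:93632266-93632313: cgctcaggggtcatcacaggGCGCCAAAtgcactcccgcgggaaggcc

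The letters stood in full or in reverse complement at 23 places in the 16 members, 13 of them before the start. Of the 10 MCM and loading genes with a promoter entry, 7 held a run (70.0%), as did 4 of 7 polymerase and primase genes, 2 of 4 chromatin genes, and none of the 3 RPA, 4 nucleotide supply and 2 fork repair genes. The run was present in 10 of 22 members called higher on day 3 (45.5%) and in 6 of 17 not called (35.3%), and this difference was not tested. The CCAAT box, the letters CCAAT on either strand, was present in 26 of 39 members (66.7%) against 41.1% of all genes in the table, and 10 members held both. A match of letters describes the sequence and does not show that a factor binds there.

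**Figure D1:**
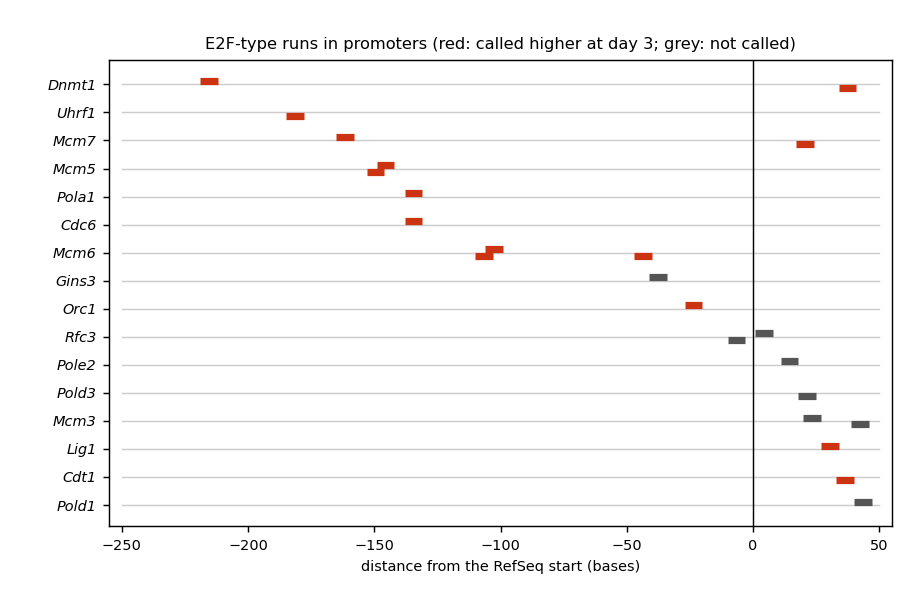
Position of each E2F-type run in the promoters of the 16 members that hold one, in bases from the RefSeq start (vertical line), with runs on the strand of the gene and on the opposite strand set slightly apart. Red marks members called higher on day 3 and grey those not called, and the 13 runs before the start belong to 10 members.

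The libraries held 46401496 to 103912264 counts. In every sample all 15 LSEC markers had counts. Their summed level was 19300 to 23000 CPM (counts scaled to the TMM library size) in healthy and 14900 to 18100 on day 1. It was 12000 to 16900 on day 3 and 11600 to 16500 on day 7. The day 3 samples fell apart in the number of genes detected, which was 34678 and 34768 in replicates 1 and 2 and 28203 and 22986 in replicates 3 and 4, against 27283 to 30735 in the other 10 samples. The summed level of 10 monocyte and neutrophil markers was 12500 and 7690 CPM in day 3 replicates 1 and 2 and 1450 and 1330 CPM in replicates 3 and 4, against 509 to 1370 in healthy, 4320 to 8480 on day 1 and 4130 to 9540 on day 7, with Retnlg and Cd177 at 0 in some samples. Stellate cell markers (Ngfr at 0 in some samples) summed to 132 to 249 CPM in healthy, 99.7 to 115 on day 1, 581 to 1640 on day 3 and 309 to 5020 on day 7. Hepatocyte markers (9 of 10 found, Tat at 0 in some samples) summed to 174 to 7210 CPM in healthy, with the highest in replicate 4, 32.1 to 128 on day 1, 785 to 2790 on day 3 and 744 to 5970 on day 7. Kupffer cell and macrophage markers summed to 326 to 2130 CPM in healthy and 721 to 1650 on day 3, lymphocyte markers to 37.3 to 179 and 27.3 to 225, and cholangiocyte markers to at most 31.3 CPM in any sample. Of the last 2 lists Cd8a, Klrb1c, Epcam, Krt19 and Cftr were at 0 in some samples. The part of these cells in the values below was not tested. The separate fits of the pairs of day 3 samples below cannot test it, since the pairs were not split by all of these cells. In replicates 1 to 4, stellate cell markers summed to 1390, 1270, 581 and 1640 CPM and hepatocyte markers to 785, 2120, 2790 and 1900 CPM.

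On day 3 the replication genes were higher than in healthy LSECs across most roles. The replication score, the mean log2 CPM over the 47 members, was 4.01, 3.77, 4.05 and 3.62 in the healthy samples and 4.81, 4.34, 5.47 and 5.49 in the day 3 samples. All 4 day 3 samples therefore lay above all 4 healthy samples, and the group means were 3.86 ± 0.20 (SD, n = 4) and 5.03 ± 0.56 (SD, n = 4), a difference of 1.16 log2 units. Of the 47 members, 28 rose and none fell in edgeR's quasi-likelihood test at an adjusted p under 0.05, whereas 4.62% of the 26626 tested genes were called higher and 2.58% lower. The median log2 fold change was 1.28 over the members and 0.18 over all tested genes, and 45 members had a value above 0. In 28 members no day 3 sample overlapped the healthy samples, all on the higher side, against 7.53% of tested genes on the higher and 6.84% on the lower side.

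**Figure D2:**
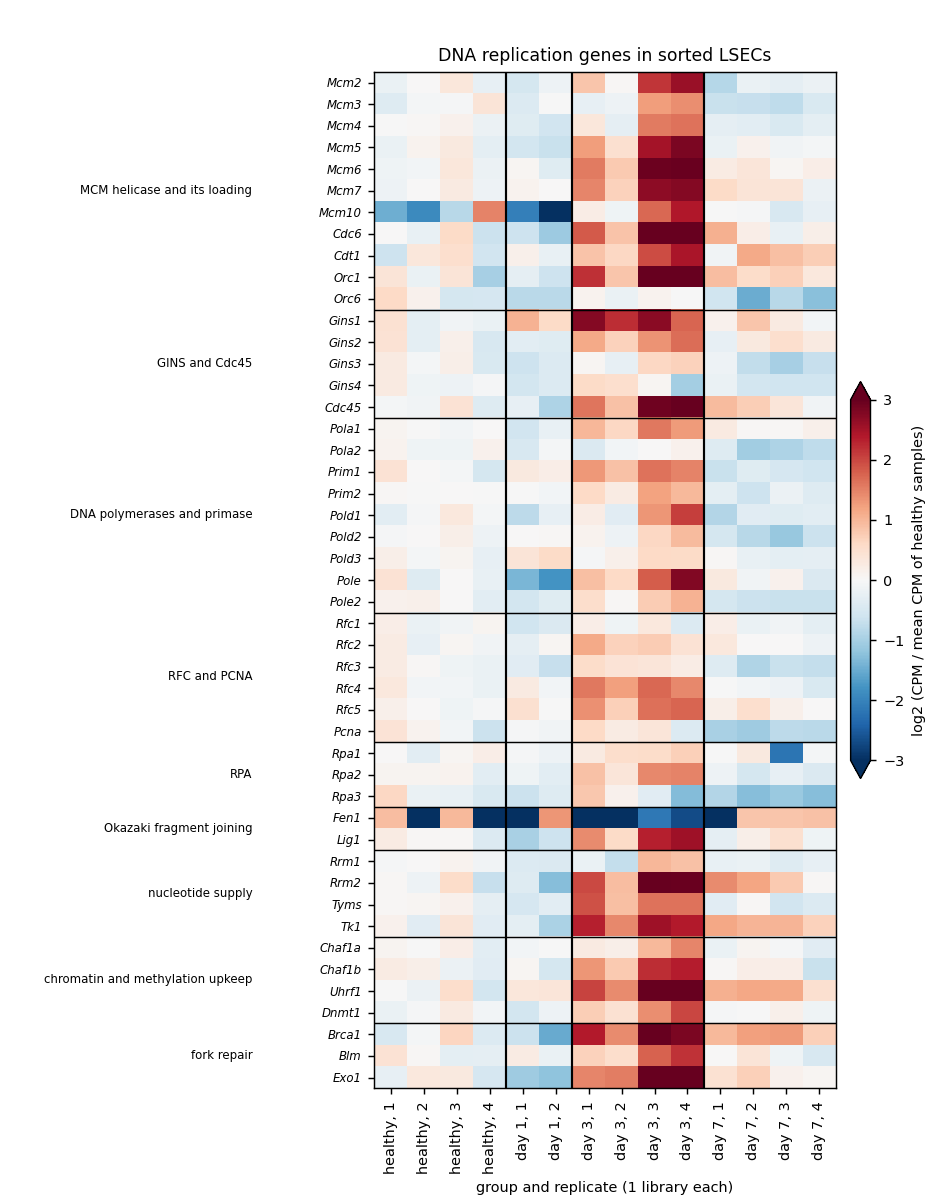
Heat map of the 47 members (rows, grouped by role) in the 14 samples (columns, 1 library each), coloured by the log2 ratio of CPM to the mean CPM of the 4 healthy samples, with colours ending at 3 in either direction. Day 3 replicates 3 and 4 hold the strongest red, replicates 1 and 2 are paler, and Fen1 switches between samples within groups.

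Members were called higher in both pairs of day 3 samples. In 37 members replicates 3 and 4 were both above replicates 1 and 2, compared with 26.3% of tested genes, and in 3 members (Gins4, Rfc3 and Rpa3) they were both below, compared with 36.7% of tested genes. With replicates 3 and 4 as the only day 3 samples, 35 members were called higher and none lower (5.37% and 4.36% of tested genes), and the median log2 fold change was 1.57. With replicates 1 and 2 alone, 20 members were called higher and 1, Rrm1, lower (10.9% and 12.8% of tested genes), and the median was 0.52. Rrm1 changed direction between the pairs, with a log2 fold change of -0.56 (adjusted p = 0.029) with replicates 1 and 2 and 0.91 (adjusted p = 0.00288) with replicates 3 and 4. Of the 28 members called with all samples, 27 and 20 were also called in these fits, which were added after the data had been seen. A higher CPM in a sorted pool can come from more cells of a kind or from more RNA per cell, and these cannot be told apart here.

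**Figure D3:**
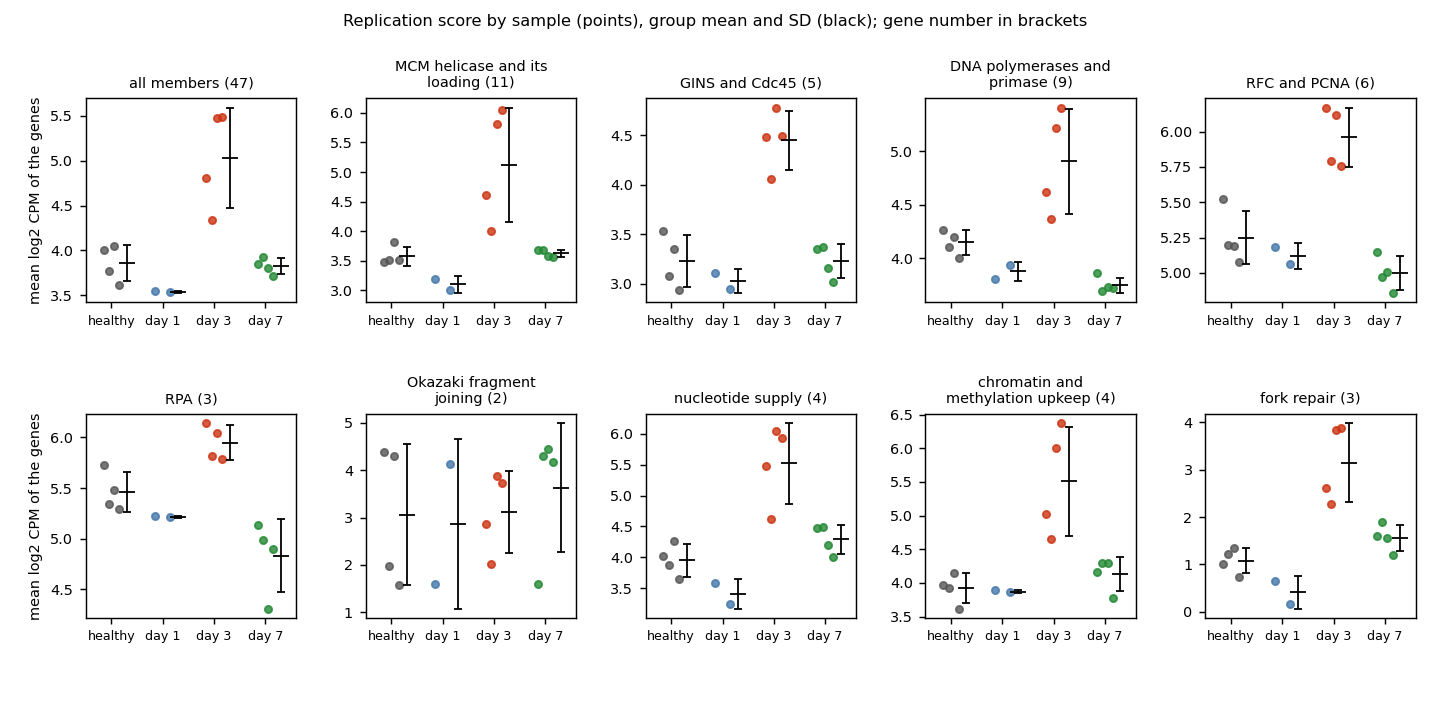
Mean log2 CPM of all 47 members and of each of the 9 roles by sample (points, 1 library each), with the group mean and SD in black and the number of genes in brackets. In the panel of all members the day 3 samples range from 4.34 to 5.49, above the 3.54 to 4.05 of the other 10 samples, and only the Okazaki fragment panel shows no separation of day 3.

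The helicase and its loading factors had 7 of 11 genes called higher, a median log2 fold change of 1.73 and scores of 4.62, 4.00, 5.81 and 6.04 on day 3 against 3.48 to 3.81 in healthy. Mcm6 (chr1:128331590-128359664, minus strand), a subunit of the ring, was at 20.1, 20.9, 28.0 and 19.6 CPM in healthy and at 65.5, 38.3, 170 and 174 CPM on day 3. It had no overlap between the groups and rose by 2.34 ± 0.39 log2 units (SE, adjusted p = 0.00479). Mcm5 (chr8:75109569-75128439, plus strand) went from 21.7, 27.1, 30.8 and 20.5 CPM in healthy to 60.1, 34.8, 142 and 178 CPM, a rise of 2.05 ± 0.40 (adjusted p = 0.00872). Mcm7, whose exons overlap those of Ap4m1, Cops6 and the microRNA genes Mir25 and Mir93, was at 13.9 to 18.6 CPM in healthy and 42.6, 25.1, 99.3 and 104 CPM on day 3, a rise of 2.13 ± 0.38 (adjusted p = 0.00615). In Mcm5 and Mcm7 as in Mcm6, replicate 2 was the lowest day 3 sample and still above every healthy sample.

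Mcm2 was at 25.9, 30.2, 37.8 and 25.2 CPM in healthy and 53.4, 30.6, 131 and 180 CPM on day 3. It rose by 1.73 ± 0.43 (adjusted p = 0.0277) although day 3 replicate 2 lay within the healthy range, and kept its call in 10 of 24 alternative settings. Mcm3 and Mcm4, the remaining subunits, did not pass the test: Mcm3 was at 36.7 to 62.3 CPM in healthy and 40.7, 43.0, 115 and 125 CPM on day 3, and Mcm4 at 28.9 to 35.7 and 41.6, 27.0, 96.4 and 101 CPM. The 6 subunits enter the ring in equal number, and per kilobase of the principal transcript their group means lay between 5.23 (Mcm7) and 15.8 (Mcm3) CPM per kb in healthy, a ratio of 3.02. On day 3 the means ran from 18.5 (Mcm4) to 38.5 (Mcm6) CPM per kb, a ratio of 2.08, and on day 7 from 6.52 to 10.2, a ratio of 1.56. These ratios are of RNA levels and were not tested.

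**Figure D4:**
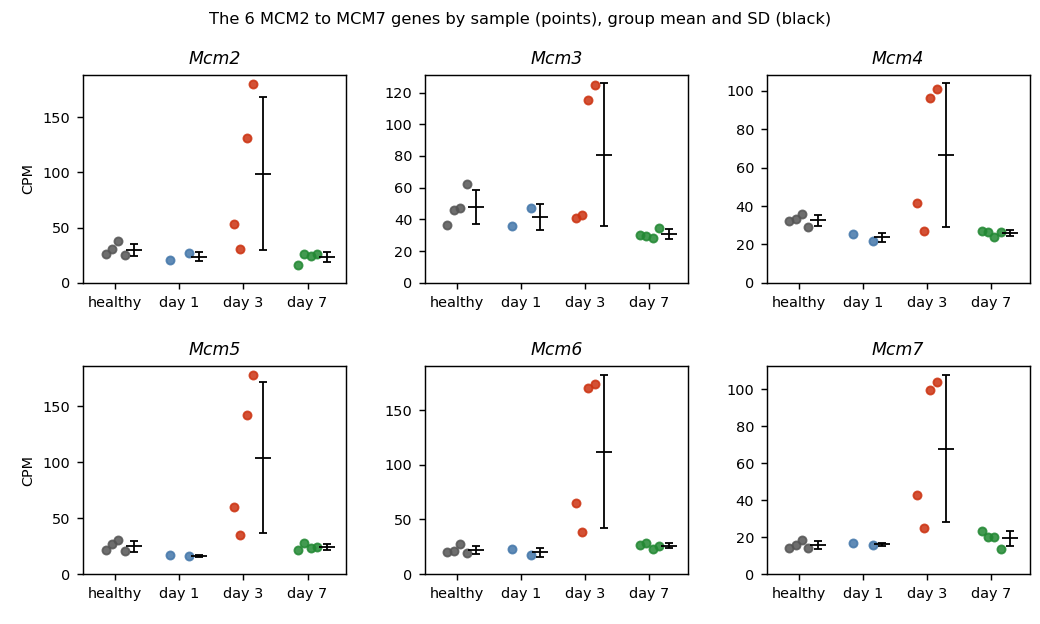
CPM of the 6 genes of the MCM2 to MCM7 ring by sample (points, 1 library each), with group mean and SD in black, on linear axes from 0. Day 3 replicates 3 and 4 stand above all other samples in each panel, and the day 7 samples range from 13.7 to 34.9 CPM over the 6 genes.

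Among the loaders, Cdc6, the ATPase that brings MCM to the origin recognition complex, was at 2.29, 1.95, 3.42 and 1.47 CPM in healthy and 8.12, 4.15, 26.5 and 27.6 CPM on day 3. It rose by 2.86 ± 0.56 (adjusted p = 0.00909), with no overlap between the groups. Orc1, a subunit of that complex, was low throughout, at 1.05, 0.693, 1.05 and 0.401 CPM in healthy and 3.66, 1.41, 7.26 and 8.84 CPM on day 3, a rise of 2.73 ± 0.51 (adjusted p = 0.00773). Orc6, another subunit, was more abundant and did not pass the test, with 40.9 to 89.1 CPM in healthy and 52.0 to 64.0 CPM on day 3. Cdt1, the licensing factor that works with CDC6, rose by 1.67 ± 0.43 (adjusted p = 0.0341) from 3.53 to 7.73 CPM in healthy to 8.44 to 30.1 CPM on day 3, and kept its call in 10 of 24 alternative settings. Mcm10, which helps to activate the helicase, was at 7.06, 5.51, 19.8 and 31.8 CPM on day 3 and at 2.18, 1.60 and 3.39 CPM in healthy replicates 1 to 3, but at 17.0 CPM in healthy replicate 4, and was not called.

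Of the factors that turn the loaded ring into a helicase, 3 of 5 were called higher. Gins1 was at 4.00, 2.38, 2.73 and 2.56 CPM in healthy and 19.7, 13.5, 19.2 and 9.71 CPM on day 3, a rise of 2.41 ± 0.31 (adjusted p = 0.00141). Its 4 day 3 samples did not follow the split between replicates 1 and 2 and replicates 3 and 4. Cdc45 was at 3.62 to 6.43 CPM in healthy and 14.6, 8.76, 36.0 and 40.9 CPM on day 3 and rose by 2.39 ± 0.45 (adjusted p = 0.00764). Gins2 rose by 1.25 ± 0.26 (adjusted p = 0.0124) from at most 20.9 CPM in healthy to 33.8, 24.9, 39.1 and 49.4 CPM. Gins3, at 6.08 to 10.0 CPM in healthy and 6.99 to 13.4 CPM on day 3, and Gins4 were not called, and Gins4, the most abundant GINS subunit per kilobase (32.2 CPM per kb in healthy), was at 65.2, 62.0, 45.5 and 21.5 CPM on day 3 against 38.8 to 52.6 CPM in healthy.

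The polymerase and primase genes moved less, with 4 of 9 called higher and a median of 0.80. Pole, the catalytic subunit of the leading-strand polymerase epsilon, was at 7.98, 4.53, 5.98 and 5.09 CPM in healthy and 11.1, 8.98, 20.9 and 40.3 CPM on day 3, a rise of 1.78 ± 0.41 (adjusted p = 0.0206). Prim1, the catalytic primase subunit, rose by 1.35 ± 0.22 (adjusted p = 0.00428) from 10.5 to 20.5 CPM to 27.9 to 47.3 CPM. Its partner Prim2 was close to 11 CPM in all healthy samples (11.1 to 11.5) and at 13.3 to 26.0 CPM on day 3, a rise of 0.80 ± 0.21 (adjusted p = 0.0367) that was called in 7 of 24 alternative settings.

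Pola1, the catalytic subunit of polymerase alpha, was at 18.0 to 20.1 CPM in healthy and 38.2, 29.1, 57.4 and 46.3 CPM on day 3 and rose by 1.17 ± 0.20 (adjusted p = 0.0051). Pola2, the accessory subunit of the same enzyme, was at 69.6 to 83.7 CPM in healthy and 56.1, 71.8, 77.1 and 83.2 CPM on day 3, so that the groups overlapped. The polymerase delta genes Pold1, Pold2 and Pold3 and the epsilon subunit Pole2 were not called, and in each of them at least 1 day 3 sample lay within the healthy range, as for Pold1 with 18.3, 12.5, 39.5 and 66.4 CPM against 12.7 to 19.6 CPM.

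The clamp loader subunits RFC2 to RFC5 share RFC1 as a partner, and 3 of the 6 RFC and PCNA genes were called. Rfc4 had 11.4, 8.60, 8.66 and 7.93 CPM in healthy and 27.3, 21.5, 30.3 and 24.7 CPM on day 3, a rise of 1.50 ± 0.20 (adjusted p = 0.0015). The 4 day 3 samples of Rfc4 differed from each other far less than those of the MCM genes. Rfc5 rose by 1.43 ± 0.23 (adjusted p = 0.00379), from 10.3 to 12.4 CPM to 18.4 to 37.3 CPM, and Rfc2 by 0.77 ± 0.18 (adjusted p = 0.0232), from 54.6 to 77.1 CPM to 87.4 to 142 CPM. Neither overlapped between the groups, and Rfc2 kept its call in 13 of 24 alternative settings. Rfc1, at 66.9 to 87.9 CPM in healthy and 57.8 to 94.9 CPM on day 3, and Rfc3, at 21.3 to 29.1 and 28.5 to 36.1 CPM, were not called.

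Pcna, the sliding clamp and the most abundant member in every sample, was at 338, 276, 243 and 164 CPM in healthy and 388, 304, 331 and 191 CPM on day 3, with overlapping groups. A near-identical copy, the pseudogene Pcna-ps2, was at 19.8 to 43.5 CPM in healthy, so the share of reads given to each is uncertain. RPA, the heterotrimer on single-stranded DNA, had 1 of 3 genes called: Rpa2 rose by 1.11 ± 0.23 (adjusted p = 0.013) from 21.1 to 28.5 CPM to 48.2, 33.7, 71.4 and 73.4 CPM. Rpa1 was above the healthy range in all 4 day 3 samples (105 to 143 against 69.1 to 98.8 CPM) without passing the test. Rpa3 was at 69.3, 43.6, 31.6 and 16.0 CPM on day 3 and 28.8 to 61.3 CPM in healthy.

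Of the pair that joins Okazaki fragments, only Lig1 was called. Lig1, the DNA ligase, was at 25.9, 22.3, 22.3 and 16.2 CPM in healthy and 58.0, 32.3, 109 and 126 CPM on day 3, a rise of 1.91 ± 0.36 (adjusted p = 0.00764). Fen1, the flap endonuclease, was at 16.8, 0.67, 17.2 and 0.527 CPM in healthy, 0.801 and 22.0 CPM on day 1, 0.895, 0.476, 1.98 and 1.37 CPM on day 3, and 0.478, 15.6, 15.7 and 16.2 CPM on day 7. Its values therefore took 2 levels, 15.6 to 22.0 CPM in 6 samples and 0.476 to 1.98 CPM in 8, within 3 of the 4 groups. The exons of Fen1 (chr19:10199132-10204169, minus strand) overlap those of Tmem258 on the other strand and of Gm10143, and Tmem258 was at 42.3 to 202 CPM. Reads of overlapping genes cannot be told apart without strand, so the Fen1 values are uncertain, and edgeR called Fen1 in no comparison with all samples. In all, 15 members share an exon with another gene. The 10 of them called higher on day 3 are Mcm7, Orc1, Gins2, Cdc45, Pole, Rfc2, Rfc4, Rfc5, Lig1 and Tk1, and the same limit holds for their values. Of the 32 members without a shared exon, 18 were called higher on day 3.

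The enzymes that supply deoxynucleotides were called in 3 of 4 cases, with a median of 1.90. Tk1, the S-phase thymidine kinase, was at 12.1, 8.73, 14.4 and 8.74 CPM in healthy and 55.2, 29.9, 64.2 and 57.0 CPM on day 3, a rise of 2.23 ± 0.27 (adjusted p = 0.00122, the smallest of the 47). Rrm2, the regulated subunit of ribonucleotide reductase, was at 5.65 to 13.2 CPM in healthy and 35.9, 17.2, 75.4 and 70.2 CPM on day 3 and rose by 2.46 ± 0.46 (adjusted p = 0.00773). Tyms, thymidylate synthase, was at 10.5 to 13.8 CPM in healthy and 47.4, 23.7, 39.1 and 38.9 CPM on day 3, with its highest value in replicate 1, and rose by 1.57 ± 0.22 (adjusted p = 0.00218). Rrm1, the large reductase subunit, was at 42.8, 29.8, 97.9 and 90.4 CPM on day 3 and 45.8 to 53.1 CPM in healthy, so that replicates 1 and 2 lay below and replicates 3 and 4 above the healthy samples, and it was not called.

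Genes that restore chromatin and DNA methylation behind the fork were called in 3 of 4 cases. Uhrf1 (chr17:56303321-56323486, plus strand), which reads hemimethylated DNA and recruits DNMT1, had the largest log2 fold change of the 47. It was at 6.23, 5.59, 9.09 and 4.34 CPM in healthy and 25.7, 16.8, 84.2 and 92.3 CPM on day 3, a rise of 3.12 ± 0.49 (adjusted p = 0.00317). Dnmt1, the maintenance methyltransferase, was at 38.5 to 53.6 CPM in healthy and 73.8, 60.4, 116 and 178 CPM on day 3 and rose by 1.28 ± 0.28 (adjusted p = 0.0162). Chaf1b, a subunit of the histone chaperone CAF-1, rose by 1.80 ± 0.34 (adjusted p = 0.00816) to 18.9, 13.0, 34.9 and 39.0 CPM on day 3, whereas its partner Chaf1a was at 20.9 to 29.9 CPM in healthy and 31.7, 29.5, 51.0 and 72.3 CPM on day 3 and was not called.

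All 3 fork repair genes were called higher, from low levels. Exo1, a nuclease that trims DNA ends and mismatches, was at 1.22, 1.81, 1.78 and 1.02 CPM in healthy and 4.00, 4.24, 11.9 and 14.3 CPM on day 3, a rise of 2.56 ± 0.43 (adjusted p = 0.00485). Brca1, which protects forks and directs homologous recombination, was at 1.38 to 3.02 CPM in healthy and 10.0, 5.10, 20.1 and 13.7 CPM on day 3 and rose by 2.67 ± 0.42 (adjusted p = 0.00331). Blm, the RecQ helicase, rose by 1.46 ± 0.37 (adjusted p = 0.0322) from 2.91 to 4.82 CPM to 5.14 to 16.2 CPM, and kept its call in 9 of 24 alternative settings.

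Of the 28 calls on day 3, 17 were kept in all 24 alternative settings and 11 were lost in at least 1. The 5 least stable were those of Prim2, Blm, Cdt1, Mcm2 and Rfc2. When 1 sample was left out at a time, Prim2 kept its call only without day 3 replicate 2 or day 7 replicate 2, and Blm only without day 3 replicate 1 or 2 or day 7 replicate 2. Mcm2 kept it only without day 3 replicate 1 or 2 or day 7 replicate 1 or 2, Cdt1 in those 4 cases and without healthy replicate 3, and Rfc2 only without day 3 replicate 2 or 4, day 7 replicate 1, 2 or 3 or healthy replicate 1. The highest adjusted p over the 24 settings was 0.237 for Prim2, 0.261 for Blm, 0.276 for Cdt1, 0.336 for Mcm2 and 0.13 for Rfc2. Without day 3 replicate 3 the calls of Rpa2, Dnmt1 and Pole were also lost, as were those of Rpa2, Dnmt1, Pole and Gins2 without healthy replicate 4, of Dnmt1 and Pole without healthy replicate 2, of Dnmt1 without healthy replicate 1 and of Pole without healthy replicate 3.

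**Figure D5:**
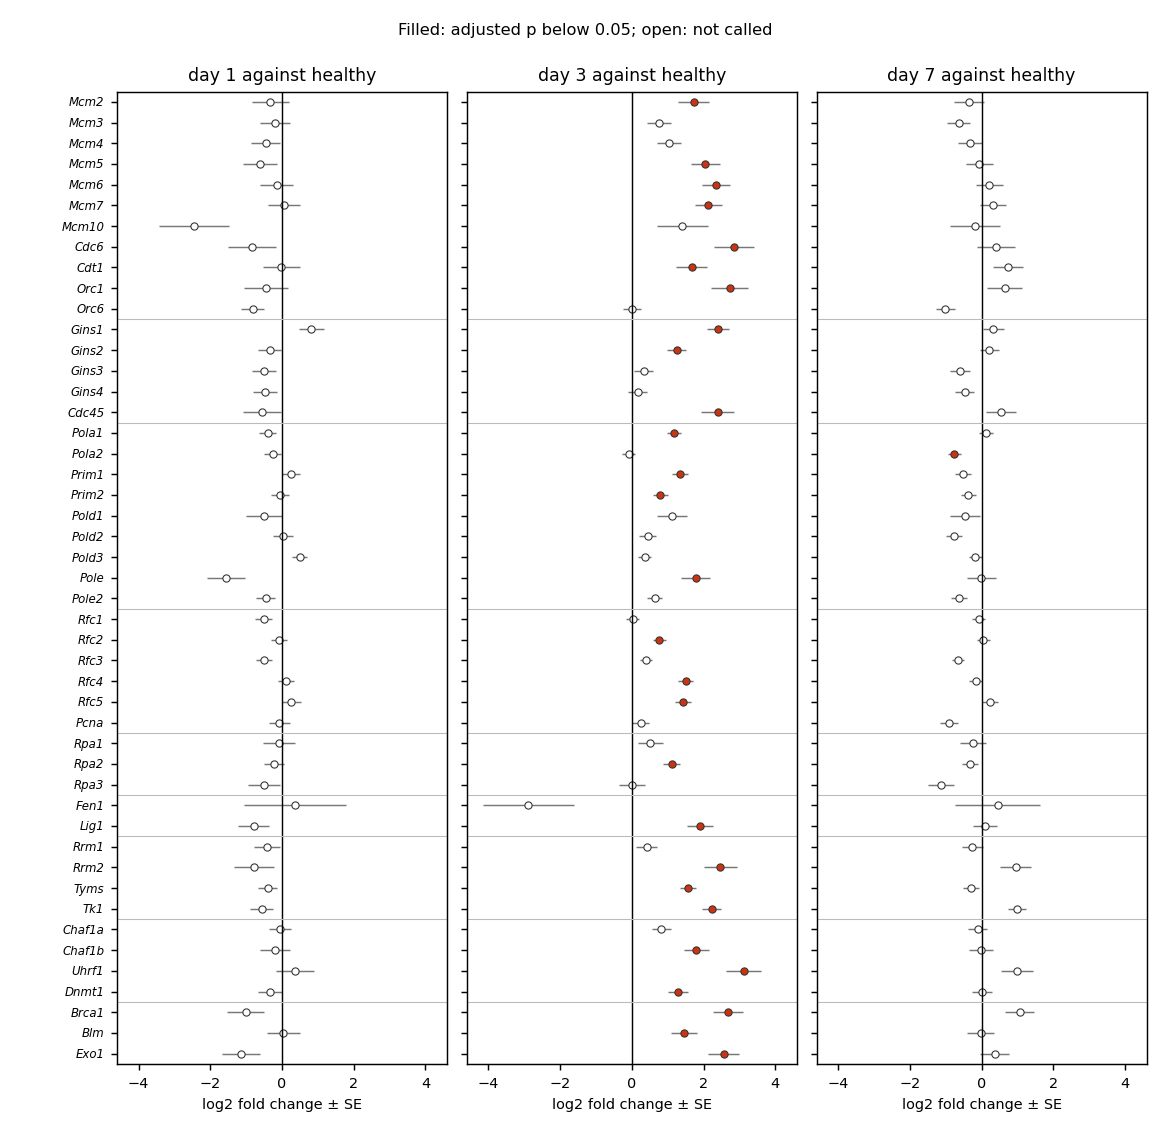
Log2 fold change with its standard error (edgeR) of the 47 members on day 1, day 3 and day 7 against healthy, grouped by role in the same order as the heat map. Filled points passed an adjusted p under 0.05: none on day 1, 28 on day 3, all to the right of 0, and 1 on day 7, Pola2, to the left.

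On day 1 no replication gene passed the test. The 2 replication scores were 3.55 and 3.54, below all 4 healthy samples, and the difference of the means was -0.32 log2 units. No member was called by edgeR, against 2.42% of tested genes called higher and 1.64% lower, and 7 of 47 had an unadjusted p under 0.05 (17.9% of tested genes). DESeq2 called 2 members lower and limma 2 higher and 3 lower. Over all 26626 tested genes, DESeq2 called 2837 and limma 4308 in either direction. Pole was at 2.27 and 1.71 CPM on day 1 against 4.53 to 7.98 CPM in healthy, Exo1 at 0.694 and 0.627 against 1.02 to 1.81 CPM, and Gins1, in the other direction, at 5.98 and 4.36 against 2.38 to 4.00 CPM. None of the 3 overlapped the healthy samples. Over all members, 37 had a log2 fold change below 0 and 10 above, with a median of -0.34 against -0.03 over all tested genes. In 16 members both day 1 samples lay below all healthy samples and in 2 above, which with only 2 samples held for 17.9% of all tested genes on the lower and 20.0% on the higher side.

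Between day 1 and day 3 the score went from 3.54 ± 0.01 (SD, n = 2) to 5.03 ± 0.56 (SD, n = 4). This comparison called 22 members higher and none lower (1.57% and 0.969% of tested genes), with a median log2 fold change of 1.49 against 0.19 over all tested genes. In 37 members all day 3 samples were above both day 1 samples and in none below (11.4% and 10.4% of tested genes). Tk1 rose by 2.80 ± 0.37 (adjusted p = 0.00274), from 9.04 and 5.72 CPM on day 1. Tyms rose by 1.97 ± 0.29 (adjusted p = 0.00522) from 8.92 and 10.2 CPM, and Brca1 by 3.68 ± 0.59 (adjusted p = 0.0082) from 1.23 and 0.671 CPM. Tyms and Brca1 lost their calls without either day 1 sample and Tk1 without day 1 replicate 2. Nearly all calls of members were lost without either day 1 sample, a fit that leaves 1 sample in that group, and calls over all genes fell as well. The count of members was 9 without day 3 replicate 3, 13 without day 7 replicate 3 and 12 without day 7 replicate 4 (edgeR). Calls over all genes in these 3 fits were 481, 509 and 511, against 676 with all samples. The day 3 samples are the same as in the comparison with healthy.

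By day 7 the replication score was 3.85, 3.93, 3.81 and 3.72, within the range of the healthy samples and below every day 3 sample. Against day 3, 24 members fell and none rose (1.36% of tested genes called lower and 0.413% higher), with a median log2 fold change of -1.36 against -0.10 over all tested genes, and in 30 members the day 7 samples were all below the day 3 samples and in none above (4.15% and 3.76% of tested genes). Prim1 dropped by 1.87 ± 0.22 (adjusted p = 0.00712) to 9.63, 11.9, 10.8 and 10.1 CPM, and Tyms dropped by 1.87 ± 0.23 (adjusted p = 0.00712) to 9.99, 12.9, 8.49 and 9.49 CPM. Gins1 dropped by 2.08 ± 0.31 (adjusted p = 0.00782) to 3.19, 5.23, 3.51 and 2.77 CPM, and Mcm6 by 2.11 ± 0.39 (adjusted p = 0.0196) to 26.2, 28.5, 23.2 and 25.6 CPM. Pcna, Pold2, Pole2 and Rfc3 were called here but not on day 3 against healthy: Pcna dropped by 1.15 ± 0.24 (adjusted p = 0.0311) to 130, 121, 148 and 146 CPM. Prim1 and Tyms kept their calls in 23 of 24 alternative settings, Gins1 in 21, Mcm6 in 14 and Pcna in 10, and Gins1 lost its call without day 7 replicate 3 or 4.

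The number called between day 3 and day 7 was less stable than its direction. It was 3 without day 7 replicate 3 or 4, 4 without day 3 replicate 3, 5 without day 7 replicate 1, 7 without healthy replicate 4, 8 without day 3 replicate 1 or day 7 replicate 2, and 31 without day 3 replicate 2. Calls over all genes in these fits were, in that order, 26, 44, 190, 127, 180, 104, 143 and 289, against 472 with all samples. Fits without either day 1 sample, which leave 1 sample in that group, also called fewer members and fewer genes. With only the 2 groups compared, 0 members and 1 gene of all were called. With only replicates 1 and 2 or only replicates 3 and 4 for day 3, 20 and 36 members were called lower and none higher (12.3% and 1.92% of tested genes called lower, 11.1% and 0.652% higher).

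Against healthy, day 7 showed 1 call among the 47 members. Pola2 was at 58.3, 36.8, 39.8 and 44.9 CPM on day 7 against 69.6 to 83.7 CPM in healthy, a drop of 0.76 on the log2 scale with SE 0.19 (adjusted p = 0.0429, against 0.992% of tested genes called lower and 2.19% higher). It lost its call without either day 1 sample, day 3 replicate 2 or 3, day 7 replicate 2, 3 or 4, or any 1 of the 4 healthy samples, and kept it in 7 of 22 alternative settings. In those leave-outs 0 members were called (edgeR), except that Tk1 was called higher without day 3 replicate 2 and Pcna and Orc6 lower without healthy replicate 4. The count was 2 without day 3 replicate 1, 3 without day 7 replicate 1 and 7 without day 3 replicate 4. Calls over all genes in these 3 fits were 847, 1509 and 2166, against 846 with all samples. The median log2 fold change was -0.08, and 13 members had all day 7 samples below and 2 all above the healthy samples (12.1% and 8.72% of tested genes).

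The 13 members separated on the lower side were Mcm3, Mcm4, Orc6, Gins4, Pola2, Prim2, Pold1, Pold2, Pole2, Rfc3, Pcna, Rpa3 and Rrm1. Pcna was at 121 to 148 CPM against 164 to 338 CPM in healthy, and Orc6 at 38.9, 21.1, 33.2 and 24.8 against 40.9 to 89.1 CPM, neither of them called. Separated on the higher side were Tk1 and Brca1, also not called. Tk1 was at 24.7, 22.3, 22.3 and 17.8 CPM against 8.73 to 14.4 CPM. Brca1 was at 3.76, 4.49, 4.67 and 3.13 CPM against 1.38 to 3.02 CPM. In edgeR, the adjusted p was 0.0554 for Pcna, 0.0512 for Orc6 and 0.0562 for Tk1, near the 0.0429 of Pola2. DESeq2, limma and the filter of at least 10 counts in every sample called Pcna, Orc6 and Pola2 lower and Tk1 higher. RLE size factors and library size only called none of them. Mki67, a marker of cycling cells and no member, was above the healthy samples on day 7 as well (52.6 to 116 against 13.5 to 48.1 CPM) without passing the test, and on day 3 it rose by 2.23 ± 0.48 (adjusted p = 0.0143).

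By role, the day 7 scores lay below the healthy range or overlapped it, and no role lay wholly above it. The polymerase and primase score was 3.86, 3.70, 3.73 and 3.72 on day 7, below all healthy samples (4.00 to 4.27). The RPA score was 5.14, 4.99, 4.31 and 4.90, also below all healthy samples (5.29 to 5.73), and its lowest value came from replicate 3, in which Rpa1 was at 19.1 CPM against 83.6 to 106 CPM in the other day 7 samples. The MCM and loading score, at 3.57 to 3.69, and the RFC and PCNA score, at 4.86 to 5.15, overlapped the healthy samples (3.48 to 3.81 and 5.08 to 5.52).

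On the higher side, the fork repair score was 1.60, 1.90, 1.55 and 1.21 on day 7 against 0.73 to 1.34 in healthy, and the nucleotide supply score 4.48, 4.49, 4.20 and 4.00 against 3.64 to 4.27, so that both overlapped in their lowest day 7 samples. Rrm2 stayed at 24.1, 20.7, 15.7 and 9.27 CPM on day 7 against 5.65 to 13.2 CPM in healthy, and Uhrf1 at 8.74 CPM in replicate 4 and at least 13.2 CPM in the other 3 samples against 4.34 to 9.09 CPM, neither of them called. Scores carry no test.

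Other genes of the pathway, from lists that were written with earlier results of these data known, moved in part with the members on day 3. Of 43 further replication genes (licensing regulators, checkpoint mediators and fork accessory factors), 16 were called higher and none lower, with a median log2 fold change of 0.55. Those with the largest changes were Clspn, a checkpoint mediator at the fork, which rose by 2.89 ± 0.48 (adjusted p = 0.00465), Ticrr, which helps CDC45 to load, by 2.83 ± 0.53 (adjusted p = 0.00764), and Pclaf, a PCNA-binding factor, by 2.74 ± 0.40 (adjusted p = 0.00253).

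Genes of DNA repair and of mitochondrial DNA replication were called in both directions, where 4.62% of all tested genes were called higher and 2.58% lower. Of 23 repair and translesion synthesis genes, 1 was called higher (4.35%, Apex1, the abasic site endonuclease, 1.59 ± 0.28, adjusted p = 0.00644) and 2 lower (8.7%, Xpc and Polk, by -0.87 ± 0.24 and -0.70 ± 0.19, adjusted p = 0.0451 and 0.0415), with a median of -0.02. Of 12 genes that replicate mitochondrial DNA, Polg2 was called higher (8.33%, 1.18 ± 0.33, adjusted p = 0.0496) and Mgme1 and Tk2 lower (16.7%, -0.92 ± 0.23 and -0.61 ± 0.16, adjusted p = 0.0277 and 0.0387), with a median of -0.12. The difference between these lists and the members was not tested.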

How the data were processed

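LSEC RNA had been prepared with a SMART-Seq v4 kit and sequenced (the methods name both paired-end and single-end runs). Per the methods and the submitters' processing notes, STAR alignment to GRCm38.p6 was followed by StringTie, and the authors deposited raw gene counts per sample. Tool versions, the annotation release, the strand setting and the step from StringTie to counts were not given in the sources used here. Columns were matched to samples by name, and none was left unused. Ensembl IDs were named with GENCODE M21 on GRCm38, which held 54495 of 54524 IDs, and 9902 genes had no count.

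The members, roles and gene lists were chosen with earlier results of these data known. Counts were tested with edgeR 4.0.16 (R 4.3.3) by the quasi-likelihood F test, with filterByExpr (minimum count 10, minimum total 15), TMM scaling and a model of 4 group means over all 14 samples. Benjamini-Hochberg adjustment ran over 26626 genes, and a gene was called at an adjusted p under 0.05. The study used DESeq2, which was an alternative here (1.42.0), as was limma 3.58.1 with sample quality weights. The SE of a log2 fold change was taken as its size over the root of the F statistic. CPM used TMM library sizes, and log2 CPM a prior count of 2. The scores have no test.

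All 47 members were named. Fold changes were printed for called members, and of each further list those with the 3 largest called changes, plus Mki67. Neither the labels nor the methods state that each sample came from a separate mouse, so p-values measure the spread between samples, which may be technical. No 2 libraries of a group agreed within sampling noise, since the chi-square per degree of freedom over genes was at least 75.7. The procedure was checked on simulated counts. Promoters were from RefSeq (GRCm38.p6). At 46401496 to 103912264 counts per sample, replicate spread was therefore far above counting error. The sort markers named in the methods also include absence of CD45, which the labels do not list.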

Additional observations from a re-analysis of the deposited data

Results flagged for a closer look

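In groups of 4 samples, a value was taken as standing apart when its gap to the nearest of the others exceeded Dixon's 95% limit for the group's range. This held in 10 of 171 groups tested (47 genes and 10 scores in 3 groups), and chance alone gives about 1 in 20.

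In healthy LSECs, replicate 4 stood apart in Mcm10 at 17.0 CPM, the highest of 4, and in Rpa2 at 21.1 CPM, the lowest. This sample also had the highest sum of hepatocyte markers, 7210 CPM, and the part of that in either value was not tested. Healthy replicate 3 was the highest in Mcm6 at 28.0 CPM and in the score of the MCM helicase and its loading at 3.81.

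On day 7, replicate 1 stood apart in 5 values. It was the highest in Gins4 at 38.1 CPM and Pole2 at 9.42 CPM, and the lowest in Pold1 at 8.57 CPM, Fen1 at 0.478 CPM and the Okazaki fragment score at 1.59, a mean over Fen1 and Lig1. Replicate 4 was the lowest in Uhrf1 at 8.74 CPM. No value of the day 3 group stood apart in this way.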

How the results depend on the processing

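The 5 score differences shifted by no more than the replicate spread under every scaling, prior count, median and choice of members tried. These choices included members without a shared exon. The differences kept their direction, except for day 7 against healthy. That difference, -0.03, was 0.04 with library size only and 0.01 with RLE size factors. Without 1 sample each the 5 differences ranged from -0.40 to -0.25 (day 1), 1.01 to 1.39 (day 3), -0.11 to 0.03 (day 7), 1.33 to 1.71 (day 3 against day 1) and -1.43 to -1.04 (day 7 against day 3).

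Counts of called members depended more on the fit. With only the 2 groups compared, 1 was called on day 1, 18 on day 3, 10 on day 7 and 0 for both day 3 against day 1 and day 7 against day 3. Calls over all genes in these fits were 2327 on day 1 (1080 with all samples), 1108 on day 3 (1915) and 3156 on day 7 (846). They were 189 for day 3 against day 1 (676) and 1 for day 7 against day 3 (472). For day 1 (0), DESeq2 gave 2, limma 5, and leaving out 1 sample 0 to 1, the 1 without day 3 replicate 4. For day 3 (28, all higher), DESeq2 gave 32, of which 31 were higher and 1 lower, and leaving out 1 sample gave 20 to 32. For day 7 (1), DESeq2 gave 7, limma 10, at least 10 counts in every sample 4, no filter 2, RLE size factors 0, library size only 0, and leaving out 1 sample 0 to 7. For day 3 against day 1 (22), leaving out 1 sample gave 0 to 27, where a lone day 1 sample is assumed to vary like the other groups. For day 7 against day 3 (24), DESeq2 gave 40, no filter 13, and leaving out 1 sample 3 to 31. Over all genes, DESeq2 called 2837 on day 1, 3790 on day 3, 2713 on day 7 and 1783 for day 7 against day 3. Calls with limma were 4308 on day 1 and 7047 on day 7. At least 10 counts in every sample gave 1133 of 16311 tested genes on day 7. No filter gave 596 of 44622 on day 7 and 157 for day 7 against day 3. RLE size factors and library size only gave 794 and 713 on day 7. Of the members that DESeq2, limma or either filter called on day 7, only Tk1 was higher. The causes of the changes in these counts were not tested. No call made with all samples changed direction.

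The sample numbers did not pair the samples: of 18 same-numbered pairs, 0 had deviations correlated over 0.1 (-0.232 to 0.096). With the replicate block, 24 members were called on day 3, 1 on day 7, which was Tk1 on the higher side (adjusted p = 0.0475) while Pola2 was not called (adjusted p = 0.0797), 0 on day 1, 8 for day 3 against day 1 and 10 for day 7 against day 3. Calls over all genes with the block were 1385 on day 3, 435 on day 7 and 594 on day 1. For day 3 against day 1 and day 7 against day 3 they were 311 and 244. Over all genes, scaling by library size only moved the share of higher calls from 64.2% to 75.1% on day 3 and from 68.8% to 86.8% on day 7.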
